A study of Mus musculus with 27 samples.

Results

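Cholesterol synthesis, its control by SREBP2 and cholesterol efflux were followed in mouse erythroleukaemia (MEL) cells through 7 genes, *Hmgcs1*, *Sqle*, *Idi1*, *Insig1*, *Srebf2*, *Abca1* and *Abcg1*. The genes were taken by symbol from the 5 RNA-Seq tables, which list between 16465 and 18519 genes, and all 7 were listed and passed the filter on low counts in each table. The study asked what the co-repressors ETO2 (encoded by *Cbfa2t3*) and IRF2BP2 and their partners LSD1 (encoded by *Kdm1a*) and GFI1B do in erythroid progenitors. MEL cells are a transformed erythroid progenitor line that can be induced to differentiate terminally.

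All 21 RNA-Seq libraries came from MEL cells. The *Cbfa2t3* knockdown (KD) has 2 control libraries (labelled Eto2 WT), 2 with the hairpin sh2 and 2 with the hairpin sh3. The *Irf2bp2* KD has 2 control libraries and 2 with the hairpin sh1, the *Kdm1a* KD has 1 control library (Lsd1 WT) and 2 KD libraries, and the *Gfi1b* KD has 2 control and 2 KD libraries. MEL induction has 2 non-induced and 2 induced libraries, for which the labels give neither agent nor time, and which the study describes as differentiation over several days. Hairpins were delivered by lentivirus, *Gfi1b* was targeted by transfected siRNA, and non-targeting shRNA or siRNA served as controls. The methods describe the replicates as independent biological samples, and they all derive from a clonal line.

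Cells make cholesterol from acetyl-CoA through the mevalonate pathway. When sterols in the endoplasmic reticulum are low, SCAP escorts the SREBP transcription factors to the Golgi, where proteases release the active form, and when sterols are high, INSIG proteins hold SCAP back. Excess cholesterol leaves through ABC transporters that the oxysterol receptors (LXR) induce, and mature red cells make no cholesterol and exchange it with plasma lipoproteins.

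The libraries held between 9929311 and 57684583 counted reads, with the *Gfi1b* and induction libraries the shallowest, and each of the 7 genes had between 740 and 18751 reads in every library. *Cbfa2t3* fell by 1.21 on the log2 scale in its KD (adjusted p = 0.00954, edgeR), and *Irf2bp2* fell by 0.33 (adjusted p = 0.00266), less than the fold limit used here. *Kdm1a* had a level of 152 CPM (counts scaled to library size) in its control, and both KD libraries had far less, 16.9 and 16.3 CPM. *Gfi1b* was at 122 and 145 CPM in the controls and at 216 and 76.5 CPM in the libraries labelled *Gfi1b* KD, so that its transcript does not bear out the label in the first of them. The summed level of the erythroid markers, of which 7 or 8 of 9 were listed above 0 in a table and *Hbb-b2* in none, rose from 1210 to 1280 CPM in the *Irf2bp2* controls to 3370 to 3610 CPM in the KD, from 1840 to 1920 to 3470 to 4140 CPM on induction, and from 1470 to 1490 to 2040 to 2420 CPM in the *Cbfa2t3* KD, while 6 myeloid markers summed to at most 1.11 CPM in any library. The sum of 4 megakaryocyte markers went from 365 to 418 CPM to 789 to 821 CPM in the *Irf2bp2* KD and from 382 to 523 CPM to 1170 to 1300 CPM on induction, and was at 480 to 592 CPM in the *Cbfa2t3* KD against 400 to 413 CPM in its controls. The sum of 3 stromal markers went from 5.4 to 6.02 CPM to 2.75 to 2.79 CPM in the *Irf2bp2* KD, from 22.3 to 23.6 CPM to 3.47 to 10.7 CPM on induction and from 6.38 to 8.3 CPM to 2.1 to 5.76 CPM in the *Cbfa2t3* KD. The part of these shifts in the results below was not tested, and in bulk RNA fewer cells of a type and less RNA per cell cannot be told apart.

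SREBPs bind sterol regulatory elements, which often lie near binding sites of the CCAAT-binding factor NF-Y, so the promoters in which these letters were found are shown. They run from 250 bases before to 50 after the start of the gene (RefSeq, GRCm38.p6, 5′ to 3′ on the gene's strand), with the sterol element and each CCAAT box (ATTGG on the strand shown) in capitals. *Hmgcs1* lies at chr13:119690101-119690400 on the plus strand, *Srebf2* at chr15:82147019-82147318 on the plus strand, *Idi1* at chr13:8885356-8885655 on the plus strand and *Insig1* at chr5:28071162-28071461 on the plus strand.
Hmgcs1: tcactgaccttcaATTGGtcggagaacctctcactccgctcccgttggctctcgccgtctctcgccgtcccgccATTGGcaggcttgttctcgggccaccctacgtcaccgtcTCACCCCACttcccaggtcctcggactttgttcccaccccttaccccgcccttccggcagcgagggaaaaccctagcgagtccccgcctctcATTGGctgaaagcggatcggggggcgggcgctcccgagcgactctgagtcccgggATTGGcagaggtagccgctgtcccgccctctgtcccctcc
Srebf2: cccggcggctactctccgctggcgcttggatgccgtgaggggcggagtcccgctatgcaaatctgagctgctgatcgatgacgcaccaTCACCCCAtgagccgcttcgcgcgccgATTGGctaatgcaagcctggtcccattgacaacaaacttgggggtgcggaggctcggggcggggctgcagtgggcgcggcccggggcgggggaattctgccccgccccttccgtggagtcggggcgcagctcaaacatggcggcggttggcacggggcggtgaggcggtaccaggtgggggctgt
Idi1: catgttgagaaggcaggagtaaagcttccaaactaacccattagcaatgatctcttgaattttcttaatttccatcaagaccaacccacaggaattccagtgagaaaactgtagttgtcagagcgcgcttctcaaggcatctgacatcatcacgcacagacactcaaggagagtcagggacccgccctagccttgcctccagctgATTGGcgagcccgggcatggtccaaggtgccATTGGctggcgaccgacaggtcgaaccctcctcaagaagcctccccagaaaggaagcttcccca
Insig1: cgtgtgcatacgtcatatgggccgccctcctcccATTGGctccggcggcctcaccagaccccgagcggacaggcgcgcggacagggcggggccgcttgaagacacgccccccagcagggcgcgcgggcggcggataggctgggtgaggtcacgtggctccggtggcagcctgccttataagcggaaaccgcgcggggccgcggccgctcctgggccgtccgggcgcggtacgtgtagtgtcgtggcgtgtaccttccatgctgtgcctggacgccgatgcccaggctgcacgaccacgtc

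TCACNCCAC was searched on both strands and occurs in 1.22% of 27025 promoter windows. Among the 5 genes with a promoter in the table it was found in *Hmgcs1*, with its first base at position -137 from the start. A shorter form, TCACCCCA, chosen after the promoters were seen and contained in the *Hmgcs1* match, occurs in 1.47% of windows and was also found in *Srebf2* at -162. CCAAT is common, in 37.9% of windows. It was found 4 times in *Hmgcs1*, 2 times in *Idi1* and in 1 place each in *Insig1* and *Srebf2*, and not in *Abca1*. AGATAA, letters bound by GATA factors, was in none of the 5 windows and in 11.4% of all. The promoters of *Sqle* and *Abcg1* were not used here.

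In the *Irf2bp2* KD the synthesis genes *Hmgcs1* and *Idi1*, their regulator *Srebf2* and the efflux gene *Abcg1* rose. Here and in the other replicated comparisons a change was called if its adjusted p did not exceed 0.05 and its log2 fold change reached 0.5 (1.41-fold) in either direction. By this rule these 4 of the 7 genes were higher and none was lower, where 22.5% of the 12329 genes tested were called and 10.1% were called higher.

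*Hmgcs1*, which makes HMG-CoA at the head of the pathway, was at 69.1 and 63.6 CPM in the controls and at 94.8 and 107 CPM in the KD. Both KD libraries lay above both controls, as they did for 36.7% of all genes (37.4% had both below), and the change was a log2 fold change of 0.60 ± 0.088 (SE, adjusted p = 2.83e-05, edgeR). *Idi1*, which isomerizes isopentenyl diphosphate, was at 83.7 and 74.5 CPM against 115 and 135 CPM, a log2 fold change of 0.66 ± 0.094 (adjusted p = 2.48e-05, edgeR). Its KD libraries also lay above both controls.

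*Sqle*, which oxidizes squalene and is a rate-controlling enzyme of the later pathway, was at 194 and 181 CPM in the controls and at 249.6 and 270.3 CPM in the KD. The groups did not overlap and the adjusted p was 0.000266 (edgeR), but the log2 fold change of 0.47 ± 0.086 stayed under the fold limit. It passed the limit without control replicate 1 (0.53) or without KD replicate 1 (0.54). *Srebf2*, which encodes SREBP2, was at 250.9 and 264 CPM against 366 and 363 CPM. Its log2 fold change of 0.50 ± 0.084 (adjusted p = 0.000126, edgeR) sat on the limit, and without control replicate 1 it was 0.47 and no longer called.

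*Insig1*, itself an SREBP target whose product retains SCAP, went the other way, from 206 and 217 CPM in the controls to 170 and 172 CPM in the KD. The KD libraries lay below both controls, a log2 fold change of -0.31 ± 0.082 that is under the fold limit (adjusted p = 0.00585, edgeR). Of the efflux genes, *Abcg1*, which loads cholesterol onto high-density lipoprotein, was at 140 and 160 CPM in the controls and at 226 and 222 CPM in the KD. That is a log2 fold change of 0.58 ± 0.088 (adjusted p = 4.26e-05, edgeR), with no overlap, and 0.49 without control replicate 1. *Abca1*, which loads lipid-poor apolipoprotein, overlapped between the groups, at 185 and 166 against 200.3 and 166 CPM (log2 fold change 0.06 ± 0.098, adjusted p = 0.655, edgeR).

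**Figure D1:**
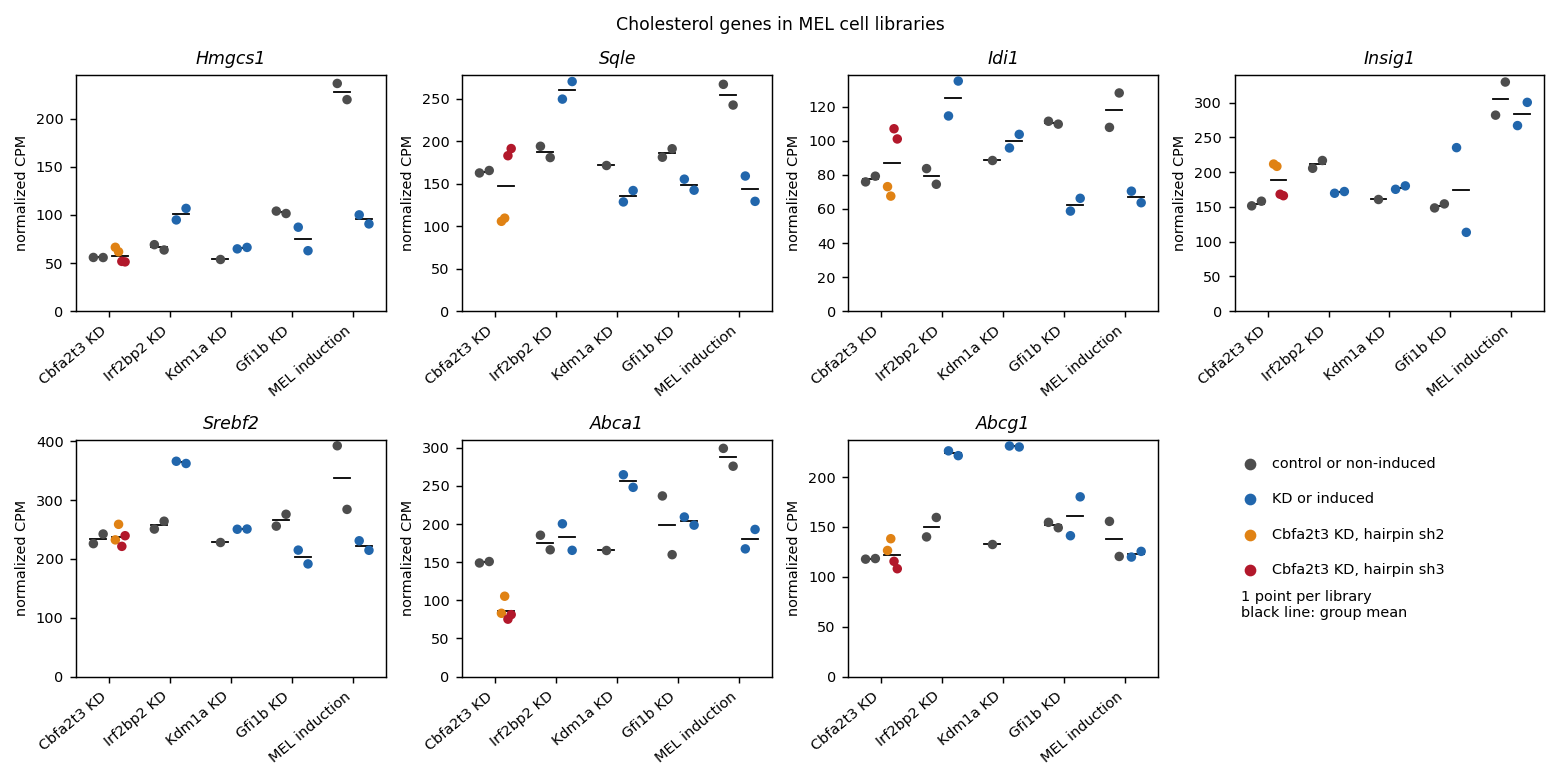
Normalized CPM (y axis, linear, from 0) of each gene in each library, by comparison (x axis). Points are libraries and black lines group means. *Abca1* is low in the 4 *Cbfa2t3* KD libraries, at 75.2 to 105 CPM, and *Hmgcs1* is highest in the 2 non-induced libraries, at 220 and 237 CPM.

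The other genes of the pathway were described through 5 lists. In the *Irf2bp2* KD, 11 of 21 sterol synthesis genes were called higher and none lower, and the median log2 fold change of the list was 0.51 against -0.01 over all genes tested. Without the 3 genes described above, 9 of 18 were higher. The members called higher ran along the pathway, from *Mvd*, the mevalonate diphosphate decarboxylase (log2 fold change 0.73, 34.2 to 56.7 CPM), to *Ebp*, a sterol isomerase (0.67), and *Dhcr7*, which completes cholesterol (0.62).

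Among 9 genes of SREBP control, 2 were higher and 1 lower. The lower one was *Mbtps2*, the intramembrane protease that releases SREBP, which went from 39.3 to 15.7 CPM (log2 fold change -1.33, adjusted p = 7.39e-09, edgeR). *Rnf139*, a ubiquitin ligase of the endoplasmic reticulum, rose by 0.71. Of 13 uptake and intracellular cholesterol genes tested, 4 were higher and 1 lower, with *Mylip*, a ligase that removes lipoprotein receptors, at a log2 fold change of 1.22 and *Lipa*, the lysosomal acid lipase, at -1.32. Of 10 efflux and LXR genes, 3 were higher, with *Abcg4*, a transporter related to *Abcg1*, at 1.49 (37.8 to 106 CPM) and *Nr1h2*, an LXR, at 0.82. The 10 fatty acid genes of SREBP1 were split, with *Fasn* higher at 0.73 and *Acly* and *Acaca* lower at -0.59 and -0.50, and their median was 0.05.

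MEL induction showed the opposite direction for the synthesis genes. Of the 7 genes, 4 were called lower, *Hmgcs1*, *Sqle*, *Idi1* and *Abca1*, and none higher, where 27.2% of 11713 genes were called, 14.8% lower and 12.4% higher. *Hmgcs1* fell from 237 and 220 CPM to 100.1 and 90.7 CPM, a log2 fold change of -1.26 ± 0.24 (adjusted p = 0.00213, edgeR), and this call held when any library was left out. The non-induced libraries were far above the induced ones, 2.39-fold on average.

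*Sqle* went from 267 and 243 CPM to 159 and 129 CPM (log2 fold change -0.82 ± 0.24, adjusted p = 0.0218, edgeR). *Idi1* went from 108 and 128 CPM to 70.5 and 63.7 CPM (-0.81 ± 0.24, adjusted p = 0.0224). *Abca1* went from 299 and 276 CPM to 167 and 193 CPM (-0.67 ± 0.24, adjusted p = 0.0467). For all 3 both induced libraries were below, as for 34.5% of all genes, but the adjusted p passed 0.05 for *Sqle* without non-induced replicate 1 (0.0918), non-induced replicate 2 (0.0604) or induced replicate 2 (0.212), for *Idi1* without non-induced replicate 2 (0.122) or induced replicate 2 (0.15), and for *Abca1* without any library (0.0893 to 0.225).

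*Srebf2* had unequal non-induced libraries, at 393 and 284 CPM, and 231 and 215 CPM after induction. Both induced libraries were below, but the change was not called (log2 fold change -0.60 ± 0.25, adjusted p = 0.0843, edgeR), though it was with the replicate number as a block (-0.59, adjusted p = 0.0377). *Insig1*, at 282 and 330 CPM against 267 and 300.3 CPM, and *Abcg1*, at 156 and 120 CPM against 120 and 126 CPM, overlapped between the groups and were not called (-0.11 ± 0.24 and -0.17 ± 0.24).

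The wider pathway fell as well. On induction 16 of 21 sterol synthesis genes were called lower and none higher, with a median log2 fold change of -1.47 against -0.02 over all genes. The largest falls were those of *Fdps*, which makes farnesyl diphosphate (204 to 42.9 CPM, log2 fold change -2.25), the sterol dehydrogenase *Nsdhl* (-2.03), the phosphomevalonate kinase *Pmvk* (-1.86) and *Mvd* (-1.82). Of the 10 fatty acid genes of SREBP1, 9 were lower, led by the desaturases *Scd1* (1660 to 307 CPM, -2.44) and *Scd2* (-2.01), the elongase *Elovl6* (-1.91) and the ATP citrate lyase *Acly* (-1.43).

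*Srebf1*, the gene of SREBP1, was among the 9 genes of SREBP control and fell by 1.07 (adjusted p = 0.0153, edgeR), while 2 of them rose, among them *Rnf139* (1.03). Of the 13 uptake and intracellular genes, 2 rose and 6 fell. *Mylip* rose from 11.96 to 112 CPM (log2 fold change 3.22), and among those that fell were *Lrp1*, a lipoprotein receptor (-2.18), *Npc2*, which carries cholesterol out of lysosomes (-2.11), and *Soat1*, which esterifies it (-1.48). Of the 10 efflux and LXR genes 3 rose and 4 fell, with *Abcg4* at 2.53, *Nr1h2* at 1.13 and its partner *Rxra* at 1.10. Among those that fell were *Abca1* and, at -1.04, the phospholipid acyltransferase *Lpcat3*, while the other two had larger falls from levels of at most 12.4 CPM. Without induced replicate 2 none of the control genes, 5 uptake and intracellular genes and 4 efflux genes were called. Without non-induced replicate 1 there were 1 control gene and 4 uptake and intracellular genes, and without non-induced replicate 2 there were 5 uptake and intracellular genes and 2 efflux genes.

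**Figure D2:**
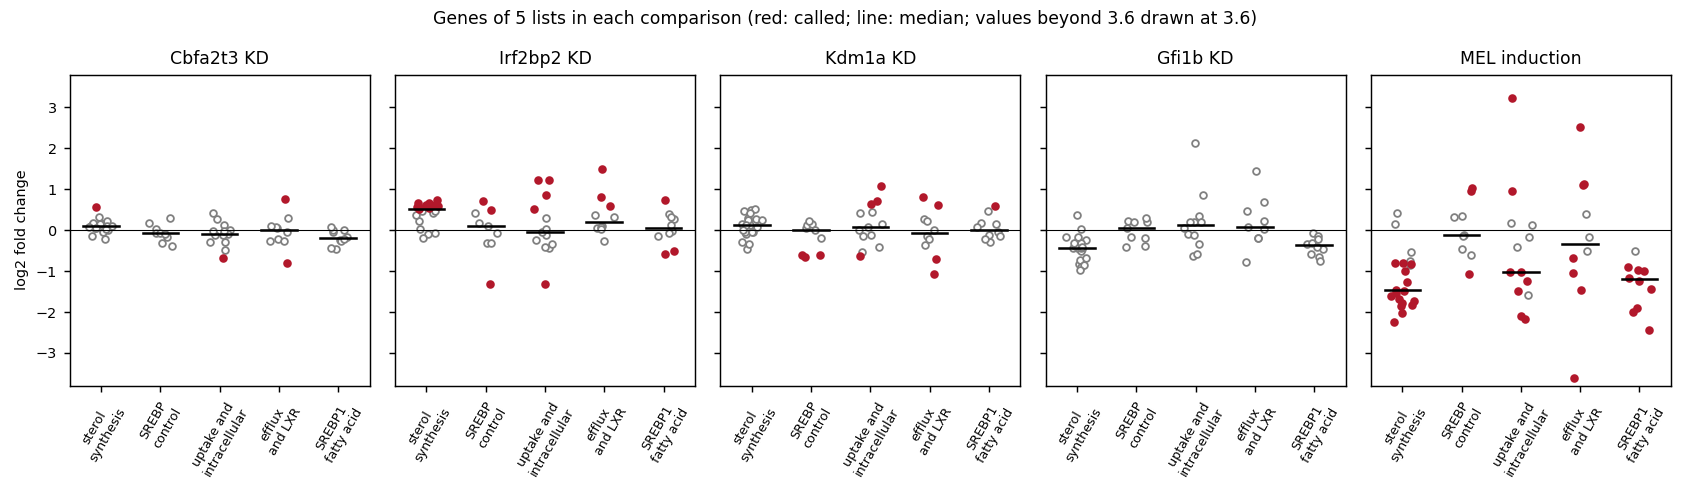
Log2 fold change (y axis) of each tested gene of the 5 lists (x axis), with 1 panel for each comparison. Red points were called, and the line is the median of the list. Sterol synthesis genes have a median of 0.51 in the *Irf2bp2* KD and of -1.47 on induction. A value beyond 3.6 is drawn at 3.6.

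In the *Cbfa2t3* KD, over both hairpins, *Abca1* was the 1 gene of the 7 that was called, and it was lower, where 5.74% of 12537 genes were called, 2.75% lower and 2.99% higher. It was at 149 and 151 CPM in the controls, at 82.9 and 105 CPM with sh2 and at 75.2 and 81.2 CPM with sh3. All 4 KD libraries lay below both controls, as for 18.7% of all genes, with a log2 fold change of -0.80 ± 0.12 (adjusted p = 0.00312, edgeR), and the call held without any library. With sh2 alone it was -0.67 (adjusted p = 0.000291, edgeR) and with sh3 alone -0.94 (adjusted p = 9.22e-08, edgeR).

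*Insig1* was at 152 and 158 CPM in the controls, at 212 and 208 CPM with sh2 and at 168 and 166 CPM with sh3. The KD libraries were all above the controls, as for 19.1% of all genes, but the change was not called (0.28 ± 0.11, adjusted p = 0.14, edgeR). *Srebf2*, at 226 and 243 CPM in the controls, ranged from 222 to 259 CPM in the KD, and *Hmgcs1*, at 55.9 and 55.8 CPM, ranged from 51.3 to 66.4 CPM, both with overlap. *Abcg1* overlapped as well, at 118 and 118 CPM against 108 to 138 CPM.

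*Sqle* and *Idi1* differed between the hairpins. *Sqle* was at 163 and 166 CPM in the controls, at 106 and 110 CPM with sh2 and at 183 and 191 CPM with sh3, below the controls with the former and above them with the latter. The difference of sh3 from sh2 was 0.80 ± 0.054 on the log2 scale (adjusted p = 1.07e-05, edgeR), in a test that called 3.71% of all genes, 1.92% higher with sh3. *Idi1* was at 75.9 and 79.3 CPM in the controls, at 73.1 and 67.6 CPM with sh2 and at 107 and 101 CPM with sh3, a difference of 0.57 ± 0.063 (adjusted p = 0.00024, edgeR).

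The mean over both hairpins therefore left *Sqle* at -0.15 ± 0.24 and *Idi1* at 0.17 ± 0.18, neither called. Against the controls, *Sqle* fell by 0.61 with sh2 (adjusted p = 1.86e-05, edgeR) and had a log2 fold change of 0.19 with sh3, under the fold limit. *Hmgcs1*, *Insig1* and *Abcg1* were lower with sh3 than with sh2 by log2 differences of -0.31, -0.33 and -0.24, all under the fold limit. *Cbfa2t3* itself was lower with sh3, by -0.73 (adjusted p = 0.000752, edgeR). Over the 21 sterol synthesis genes, *Sqle* and *Idi1* were the 2 called between the hairpins, and the median difference was -0.02.

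**Figure D3:**
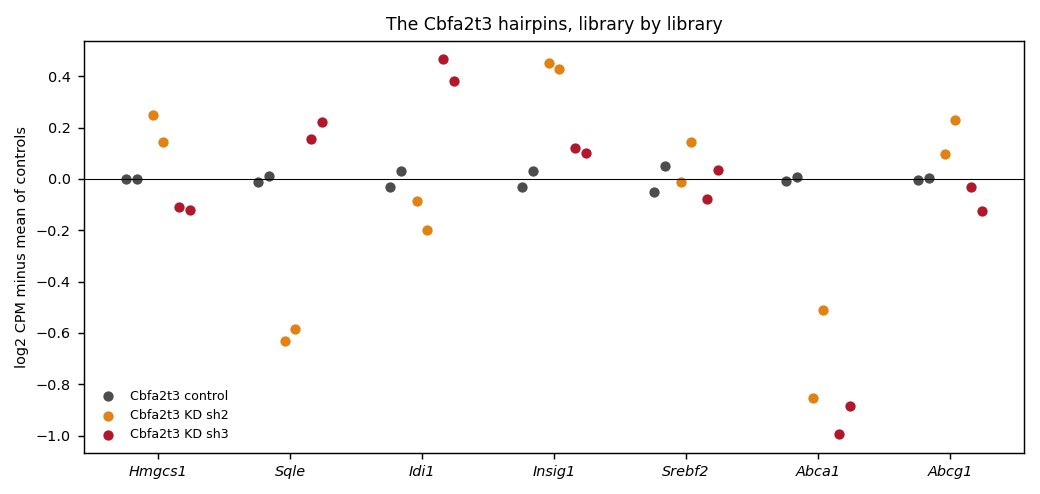
Log2 CPM of each library of the *Cbfa2t3* comparison minus the mean of the controls (y axis), for each gene (x axis), with controls in grey, sh2 in orange and sh3 in red. *Abca1* is below the controls with both hairpins, while *Sqle* lies below them with sh2 (106 and 110 CPM) and above them with sh3 (183 and 191 CPM).

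Few other genes of the lists moved in the *Cbfa2t3* KD. In sterol synthesis *Hsd17b7*, a ketosterol reductase, was higher at 0.57 (7.09 to 10.5 CPM), and the list's median was 0.10. *Abcg4* was higher at 0.76 (41.6 to 70.5 CPM, adjusted p = 0.0051, edgeR) and *Lipa* was lower at -0.68 (3.88 to 2.41 CPM). *Hsd17b7* lost its call without either control library and *Abcg4* without control replicate 1. *Lipa* lost its call with the replicate number as a block, without either control library, and without replicate 1 of sh2 or of sh3. No gene of SREBP control or of the fatty acid list was called over both hairpins, though 2 fatty acid genes were called lower with sh3 alone. By adjusted p without the fold limit 2 control genes, among them *Srebf1* (-0.38, adjusted p = 0.00733, edgeR), and 3 fatty acid genes, among them the desaturase gene *Scd2* (-0.47, adjusted p = 0.00482, edgeR), were lower. By the same rule 2 sterol synthesis genes were higher and 1 was lower. The uptake and intracellular list and the efflux and LXR list each had 2 higher and 2 lower. Of the 10 fatty acid genes 8 were below 0, and of the 21 sterol synthesis genes 4 were, where 49.5% of all genes were.

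In the *Kdm1a* KD both efflux genes were higher. With 1 control library there is no test, and a gene was called when each KD library was at least 0.5 above, or each at least 0.5 below, the control on the log2 scale. This held for 22.9% of 12628 genes, with 13.1% higher and 9.8% lower. *Abcg1* went from 133 CPM to 231 and 230.2 CPM (log2 fold change 0.80), and *Abca1* from 166 CPM to 265 and 248 CPM (0.62). The KD libraries agreed closely with each other for both genes. Of the 10 efflux and LXR genes, these 2 were the only ones called higher and 2 others were called lower. The median of that list was -0.08. Beside this, the summed erythroid markers went from 1560 to 1090 CPM and 3 stromal markers from 6.28 CPM to 21.2 and 24.3 CPM, and their part in the result was not tested.

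The synthesis genes stayed under that limit. *Hmgcs1* had 53.8 CPM in the control against 64.8 and 66.3 CPM, *Idi1* at 89.0 against 95.8 and 104 CPM, and *Sqle* at 172 against 129 and 142 CPM. *Srebf2* (229 CPM against a mean of 250.8 CPM) and *Insig1* (161 against 175 and 180.2 CPM) moved by 0.13 and 0.14 on the log2 scale. None of the 21 sterol synthesis genes was called. Of the 9 control genes 3 were lower, among them *Scap* (-0.66) and *Mbtps1*, a protease of SREBP (-0.61). Other lower genes included *Abcg4* (-1.08, 36.7 to 17.4 CPM) and *Stard4*, a sterol carrier (-0.63). The higher genes included *Soat1* (1.09), *Npc2* (0.71) and *Nceh1*, a cholesterol ester hydrolase (0.65).

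In the libraries labelled *Gfi1b* KD none of the 7 genes was called, as was no gene of the 11190 tested with edgeR (0% called). At an unadjusted p of 0.05 or less there were 784 genes, 1 of the 7 among them, and DESeq2 called 59 genes. *Idi1* was at 112 and 110 CPM in the controls and at 58.8 and 66.3 CPM in the libraries labelled KD, a log2 fold change of -0.82 ± 0.20 (adjusted p = 0.69, edgeR). *Hmgcs1* (104 and 102 against 87.3 and 62.9 CPM), *Sqle* (181 and 191 against 155 and 142 CPM) and *Srebf2* (256 and 276 against 215 and 192 CPM) also had both libraries labelled KD below both controls, as 19.6% of all genes had.

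*Insig1* showed the disagreement of the libraries labelled KD, at 235 CPM in replicate 1 and 113 CPM in replicate 2 around controls of 149 and 154 CPM. The summed erythroid markers ranged from 1320 to 3170 CPM and the megakaryocyte markers from 175 to 893 CPM in these libraries, against 1260 to 1370 and 223 to 286 CPM in the controls. Without replicate 1 of the KD the log2 fold change was -0.71 for *Hmgcs1* and -0.74 for *Idi1*. Without replicate 2 it was -0.93 for *Idi1* and 0.62 for *Insig1*. Each of these values rests on 1 library labelled KD, which the fit assumes to vary like the controls. *Abca1* (237 and 160 against 209 and 199 CPM) and *Abcg1* (155 and 149 against 141 and 180.2 CPM) overlapped. The median of the 21 sterol synthesis genes was -0.44 and 19 had a log2 fold change below 0, with none called, where 47.7% of all genes were below 0. *Fdps* was at 125 CPM in the controls and 67.0 CPM in the libraries labelled KD, and *Cyp51*, the lanosterol demethylase, at 91.5 and 50.8 CPM.

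**Figure D4:**
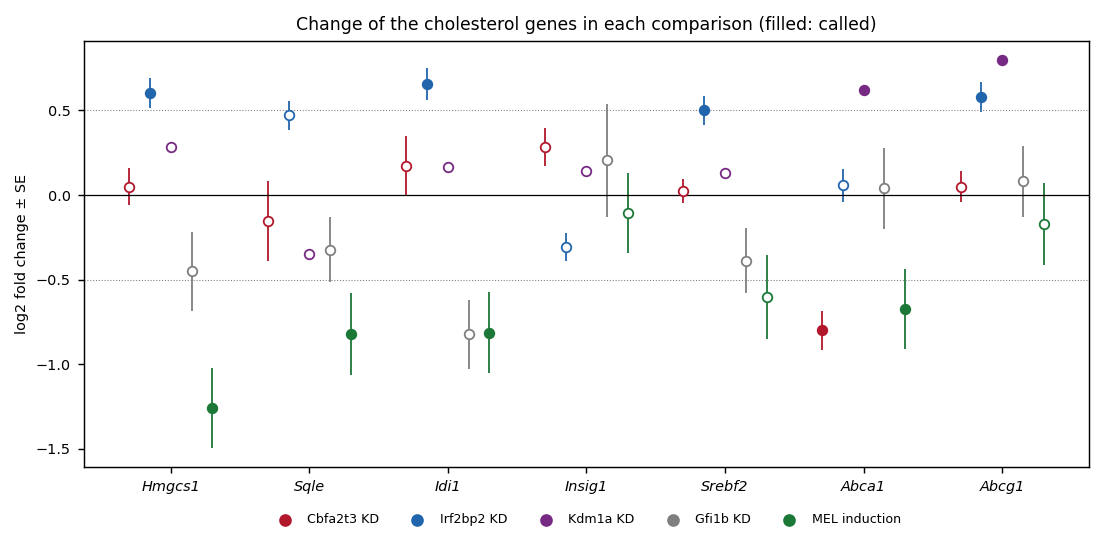
Log2 fold change of each gene (x axis) in each comparison (colours), with bars of 1 SE where a test was possible. Filled points were called and dotted lines mark the fold limit of 0.5. *Hmgcs1* spans from -1.26 on induction to 0.60 in the *Irf2bp2* KD.

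The changes were compared directly in a fit of all replicated libraries with a term for each comparison. The change of the *Irf2bp2* KD exceeded that of induction for 6 of the 7 genes, where 20.5% of all 13620 genes passed the limits. The log2 differences were 1.92 ± 0.22 for *Hmgcs1*, 1.53 ± 0.28 for *Idi1*, 1.35 ± 0.33 for *Sqle*, 1.17 ± 0.20 for *Srebf2*, 0.81 ± 0.23 for *Abcg1* and 0.79 ± 0.26 for *Abca1*. The last lost its call with the size factors of DESeq2 (0.71, adjusted p = 0.0614, edgeR). *Insig1* did not pass (-0.14 ± 0.30).

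Between the *Cbfa2t3* KD and induction 3 genes passed, *Hmgcs1* (1.36), *Idi1* (1.03) and *Srebf2* (0.68), against 24.4% of all genes. *Abca1*, lower in both, differed by -0.08 ± 0.24. Between the *Irf2bp2* and *Cbfa2t3* KDs none of the 7 passed, against 0.742% of all genes. *Abca1* came nearest, with a log2 difference of 0.87 ± 0.24 (adjusted p = 0.126, edgeR). In a fit of these libraries alone, where 14.5% of all genes passed, 4 did, *Hmgcs1* (0.56), *Insig1* (-0.58), *Abca1* (0.86) and *Abcg1* (0.54). Between the *Gfi1b* and *Cbfa2t3* KDs none passed, against 1.41% of all genes, and *Idi1* was nearest at -1.06 ± 0.26 (adjusted p = 0.0537, edgeR).

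Levels were compared between genes by the RPKM values of the deposited tables, which account for length. Over the 9 control and non-induced libraries the medians were 67.1 RPKM for *Sqle*, 60.3 for *Insig1*, 56.0 for *Srebf2*, 30.9 for *Idi1*, 24.3 for *Abcg1*, 19.8 for *Hmgcs1* and 16.5 for *Abca1*. The ranges of the first 3 overlapped, and so did those of *Idi1*, *Abcg1*, *Hmgcs1* and *Abca1*. *Hmgcs1* ranged from 15.1 to 69.0 RPKM among the 9 libraries. The non-induced MEL libraries (61.1 and 69.0 RPKM) were above every other library, and the controls of the *Gfi1b* table came next among the 9 (28.9 and 29.4). Its level after induction, 24.97 and 28.6 RPKM, was still above that of the *Cbfa2t3* controls, both at 15.9 RPKM. The tables come from separate experiments, and their cultures and libraries cannot be told apart.

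*Abca1* had its lowest levels in the *Cbfa2t3* KD, at 7.31 and 7.90 RPKM with sh3 and 8.08 and 10.3 with sh2, and its highest in the non-induced libraries (26.4 and 30.01) and the *Kdm1a* KD (24.2 and 26.2), which lay just below them. *Abcg1* was highest in the *Kdm1a* KD (39.6 and 40.4 RPKM) and the *Irf2bp2* KD (36.8 and 38.3). *Srebf2* was highest in the *Irf2bp2* KD (76.7 and 78.9) and the non-induced libraries (61.0 and 88.4), which overlapped. *Insig1* was highest in the non-induced and induced libraries (110 to 122 and 102 to 110 RPKM).

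Across the 21 libraries, centred on the controls of each comparison, the synthesis genes correlated with *Srebf2*. Pearson's r was 0.92 between *Hmgcs1* and *Srebf2*, 0.82 between *Idi1* and *Srebf2* and 0.69 between *Sqle* and *Srebf2*, while *Insig1* had r of -0.08 with *Srebf2*. *Abca1* and *Abcg1* had r of 0.58 with each other, and *Abcg1* had r of 0.61 with *Srebf2* and 0.57 with *Hmgcs1*. These values describe libraries that share comparisons and controls. Of 11053 genes, the nearest in pattern to *Hmgcs1* were *Msmo1* (r = 0.97) and *Dhcr7* (0.95), both sterol synthesis genes, and *Sc5d*, a sterol desaturase, was near *Srebf2* (0.93). Those nearest to *Sqle*, *Idi1*, *Insig1*, *Abca1* and *Abcg1* were *St3gal4* (0.90), *Tut1* (0.93), *Sptbn4* (0.84), *Ano6* (0.93) and *Asna1* (0.96).

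Binding of ETO2 and IRF2BP2 at the genes was read from the deposited list of 13229 sites on mm9. The labels give 1 IRF2BP2 ChIP library, and the ETO2 sites rest on earlier data not analysed here. The list has 1 fold enrichment over IgG per site, without a replicate error and without the name of the antibody, so that for a shared site the antibody behind it is not known. The list codes each site as ETO2-only, shared or IRF2BP2-only without a key, and the codes were read by their numbers of sites, 1760, 2730 and 8739. *Hmgcs1* was not placed on this build, and the other 6 genes were. All 6 had a site within 100 kb of their transcription start site (TSS), as 60.8% of 22380 protein-coding genes had. An IRF2BP2-only site was there for 6 (53.6% of all genes), a shared site for 4 (27.5%) and an ETO2-only site for 3 (20.2%). Within 20 kb, 5 of the 6 had any site, against 31.6% of all genes.

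Some listed sites adjoin, as at *Abcg1* (chr17:31207148-31208356, 31208356-31208869 and 31208869-31209414) and at *Abca1* (chr4:53133677-53134626 and 53134626-53135844). The numbers of sites therefore count entries of the list, not separate regions. The transporter genes had the most listed sites. *Abcg1* (chr17:31194643-31252722, plus strand) had 11, each nearer to its own TSS than to that of any other gene, with 5 shared, 5 IRF2BP2-only and 1 ETO2-only. The strongest were a shared intronic site 13975 bp from the TSS (22-fold) and the ETO2-only site, also intronic, at 33911 bp (20.5-fold). *Abca1* (chr4:53043659-53172767, minus strand) had 8, of which 4 were nearest to its own TSS. The highest was a shared site in an intron, 38643 bp into the gene, at 30.5-fold against a median of 10.2-fold over all shared sites, and an IRF2BP2-only site of 5.33-fold had its centre 39 bp upstream of the TSS.

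*Srebf2* (chr15:81977696-82035806, plus strand) had 4 sites. An IRF2BP2-only site was centred 1 bp from its TSS (11.0-fold), another lay 341 bp upstream (6-fold) and a shared site 1127 bp upstream (10.0-fold). The shared site ends at chr15:81976923, and the IRF2BP2-only sites run from 81976933 to 81977608 and from there to 81978267. *Insig1* (chr5:28397952-28405201, plus strand) had an IRF2BP2-only site in an intron 568 bp from its TSS (6.86-fold) and an ETO2-only site 57309 bp upstream (20.5-fold) that is nearest to another gene. *Sqle* (chr15:59146632-59162747, plus strand) had 2 IRF2BP2-only sites, 39814 and 51433 bp upstream. The 3 sites of *Idi1* (chr13:8884852-8891641, plus strand), between 13774 and 36158 bp upstream, were nearest to the TSS of *Wdr37*.

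**Figure D5:**
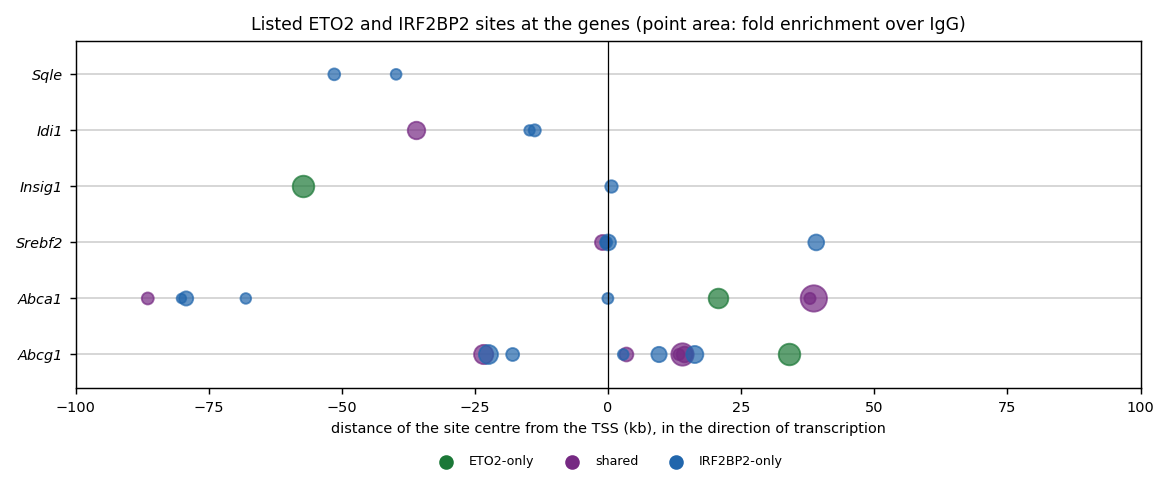
Distance of each listed site from the TSS of its gene in kb (x axis, positive in the direction of transcription), for the 6 genes placed on mm9 (y axis). Colour is the class of the site and point area its fold enrichment over IgG. *Abcg1* has 11 listed sites, some of which adjoin, and *Abca1* has 8, of which the shared intronic site of 30.5-fold is the largest.

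The composite E-box and GATA motif, the element bound by TAL1 and GATA1 in the complex that holds ETO2, was found within 100 bp of the centre of 4 of these 30 sites (13.3%), 3 at *Abca1* and 1 at *Abcg1*, against 15.4% of the whole list. It was at 2 of the 3 ETO2-only, 2 of the 10 shared and none of the 17 IRF2BP2-only sites of the genes. In the whole list the motif was present at 33.9% of the sites with ETO2 alone, at 32.7% of the shared sites and at 6.29% of those with IRF2BP2 alone. The 3 strongest of the 4 are shown over the 201 bases around the site's centre (mm9, minus strand, 5′ to 3′), to let the motif be seen in its context at both efflux genes. Capitals mark the composite motif. They are the shared *Abca1* site at chr4:53134024-53134224, the ETO2-only *Abca1* site at chr4:53151996-53152196 (17.0-fold, in an intron) and the ETO2-only *Abcg1* site at chr17:31228454-31228654.
Abca1 shared: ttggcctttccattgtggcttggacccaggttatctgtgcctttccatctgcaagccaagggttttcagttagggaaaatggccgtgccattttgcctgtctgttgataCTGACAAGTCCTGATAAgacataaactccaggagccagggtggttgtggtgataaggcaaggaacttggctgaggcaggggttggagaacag
Abca1 ETO2-only: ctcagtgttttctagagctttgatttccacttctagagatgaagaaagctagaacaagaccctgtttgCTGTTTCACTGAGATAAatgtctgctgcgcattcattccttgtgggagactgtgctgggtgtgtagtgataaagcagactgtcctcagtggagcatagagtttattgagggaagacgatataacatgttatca
Abcg1 ETO2-only: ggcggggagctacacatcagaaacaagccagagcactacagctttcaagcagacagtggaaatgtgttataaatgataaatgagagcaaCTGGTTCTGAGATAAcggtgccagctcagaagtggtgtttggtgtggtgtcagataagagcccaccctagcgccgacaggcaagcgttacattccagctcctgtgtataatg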

How the data were processed

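RNA-Seq of 21 MEL libraries and 1 list of ETO2 and IRF2BP2 ChIP-Seq sites were used. For RNA-Seq, the authors mapped reads to mm9 with TopHat2 and counted them per RefSeq gene, and deposited raw counts per gene beside RPKM values scaled by gene length and mapped reads. Their own DESeq2 fold changes and p-values in the same tables were not used. For ChIP-Seq the deposited list gives the authors' ratio of ChIP over IgG reads (fold enrichment) and a class code that the authors gave each site (other value), with no replicate error and no antibody named. The ETO2 reads behind it came from an earlier data set. Another 4 columns of read numbers were not used here.

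Counts were tested in R 4.3.3 with edgeR 4.0.16 (filterByExpr, TMM, glmQLFit and glmQLFTest), within each table, with Benjamini-Hochberg adjustment over all genes tested and limits of 0.05 on adjusted p and 0.5 on the absolute log2 fold change. CPM are normalized by TMM, and log2 CPM used a prior count of 2. *Kdm1a* KD, with 1 control, has no test. Hairpins were compared within the *Cbfa2t3* table, and 4 pairs of comparisons in a joint fit. Sites, motifs and plots were made with Python 3.11.15, pandas 2.3.3, pysam 0.24.0 and matplotlib 3.10.9, with GENCODE positions on mm9 and RefSeq promoters. The fits were tested on simulated counts with known changes in few genes. They found most of these changes in the *Cbfa2t3* and *Irf2bp2* tables but only a small part in the *Gfi1b* and induction tables.

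Genes named are the 7 chosen, the targeted genes, up to 4 genes per list and comparison with the largest called change, and those nearest in pattern. Genes named beyond these (*Cyp51*, *Fdps* in *Gfi1b* KD, *Srebf1* and *Scd2* in *Cbfa2t3* KD, *Sc5d* as the third in rank) were chosen after their values were seen. Some listed genes are not reported here. The members and lists were chosen with earlier results of these data known. Alternatives were DESeq2 1.42.0 and its size factors, no filter, other fold limits, the replicate number as a block, each hairpin alone and leaving out each library. A floor of 3 counts was at most 0.302 CPM in any library.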

Additional observations from a re-analysis of the deposited data

Results flagged for a closer look

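The change on induction differed from that in a KD in a test of the difference itself (edgeR, joint fit) for several of the genes. The log2 difference, *Irf2bp2* KD minus induction, was 1.92 for *Hmgcs1*, 1.53 for *Idi1*, 1.35 for *Sqle*, 1.17 for *Srebf2*, 0.81 for *Abcg1* and 0.79 for *Abca1*. For the *Cbfa2t3* KD minus induction it was 1.36 for *Hmgcs1*, 1.03 for *Idi1* and 0.68 for *Srebf2*. Both hairpins against *Cbfa2t3* gave different levels of *Sqle* (0.80, sh3 minus sh2) and *Idi1* (0.57). Groups of 1 or 2 libraries were too small to look for a library that stands apart.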

How the results depend on the processing

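Of 434 recomputed changes of the 7 genes, 405 stayed on their side of the limits, 19 lost their call and 10 gained one. The sign changed in 17, none of them of a change that was called, and the log2 fold change reported for those was at most 0.20 in size. The *Gfi1b* and induction libraries had 9929311 to 19623105 reads, the fewest, and the part of depth in the counts of calls was not tested. In the *Cbfa2t3* KD 1423 genes and 3 sterol synthesis genes were called by adjusted p alone, and 277, 0 of the 7 and 0 sterol synthesis genes with a fold limit of 1. With sh2 alone 882 genes, 2 of the 7 and 2 sterol synthesis genes were called, and with sh3 alone 1145 genes, 1 of the 7 and 1 sterol synthesis gene. In the *Irf2bp2* KD 5810 genes and 17 sterol synthesis genes passed by adjusted p alone, and 867, 0 of the 7 and 0 sterol synthesis genes with a fold limit of 1. In the libraries labelled *Gfi1b* KD DESeq2 called 59 genes, and without the filter on low counts 411 genes and 1 sterol synthesis gene were called. On induction 1 of the 7 passed a fold limit of 1. In the *Kdm1a* KD an edgeR fit, with the lone control assumed to vary like the KD libraries, called 1 sterol synthesis gene. The libraries of the *Irf2bp2* and *Cbfa2t3* comparisons alone gave 4 of the 7 with a difference, against 14.5% of all genes in that fit. Within 20 kb 0 of the 6 placed genes had an ETO2-only site (5.04% of all genes) and 2 a shared site (7.81%), and within 100 kb 3 had an IRF2BP2-only site at or above the median enrichment (36.8%). The cause of these shifts was not tested, apart from the stricter or wider limit itself.

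Leaving out a library gave between 279 (without control replicate 1) and 797 genes called, and 0 to 1 sterol synthesis genes, in the *Cbfa2t3* KD. It gave 0 to 3148 genes, 0 to 2 of the 7 and 0 to 10 sterol synthesis genes in the libraries labelled *Gfi1b* KD, where the high count is that without KD replicate 2 and KD replicate 1 left out gives 396. On induction it gave 1522 to 3369 genes and 1 to 3 of the 7, and in the *Kdm1a* KD 1 to 2 sterol synthesis genes.

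Replicates with the same number correlated in their deviations with r of 0.252, 0.118 and 0.246 in the *Cbfa2t3* table, 0.0251 in *Irf2bp2*, 0.00153 in *Gfi1b* and 0.196 on induction, and the labels give the numbers no meaning. With the replicate number as a block 632 genes were called in the *Cbfa2t3* KD, 2834 in the *Irf2bp2* KD, 0 in *Gfi1b* and 3916 on induction, where *Srebf2* passed the limits (-0.59, adjusted p = 0.0377, edgeR). The block changed no other call of the 7 genes, and *Lipa* lost its call in the *Cbfa2t3* KD.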
